A study of Rattus norvegicus with 9 samples.

Results

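The enzymes that attach ubiquitin to proteins and remove it were followed in rat brain cortex across simulated altitudes. Genes were taken where the array annotation gives a symbol beginning with Ube1 to Ube4, Uba plus a digit, Usp plus a digit, Uchl, or Ubr plus a digit. This gave 77 of 13311 named genes, each with 1 probe, so no choice between probes of a gene arose. They comprise 4 activating enzymes (Uba), 27 conjugating enzymes and their variants (Ube2), 4 ligases named Ube3 or Ube4 and 3 ligases named Ubr. There are also 36 members of the ubiquitin-specific protease family (Usp) and 2 C-terminal hydrolases (Uchl). The Usp proteases are counted by family, with Usp39 included although it lacks protease activity. The remaining gene, Usp6nl, matches by its name only, since it encodes a GTPase-activating protein, and it is counted apart. The cortex came from hypoxic rats at a simulated 7 km, hypoxic rats at a simulated 3 km and normoxic rats at simulated sea level, with 3 arrays in each group. The strain, sex and age of the rats and how long they were exposed were not stated. No label says that replicates are separate animals, so p-values measure only the spread between samples, which may be technical.

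Ubiquitin is a small protein that is linked to other proteins in a relay. An activating enzyme (E1) charges it, a conjugating enzyme (E2) carries it, and a ligase (E3) selects the substrate, while deubiquitinating proteases cut it off again. Chains of ubiquitin mark proteins for the proteasome or alter their location and partners, and neurons depend on this turnover at synapses. In hypoxia biology the pathway is known for the oxygen-dependent destruction of HIF alpha subunits. Related relays attach the ubiquitin-like proteins SUMO, NEDD8 and ISG15.

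Sea level replicate 3 stood apart from the other arrays. On the other 8 arrays, between 5881 and 6621 of 22523 probes were detected, meaning a detection p-value below 0.05, and the Spearman correlation with each other was 0.969 to 0.978. On sea level replicate 3, 8170 probes were detected and the correlation with the other arrays was 0.642 to 0.660. It gave the highest of the 9 values in 17 and the lowest in 10 of the 37 enzymes tested, against 38.1% and 37.2% of all probes tested. Values of comparisons with sea level are therefore also given without it, after normalizing the remaining arrays anew, as the value on 8 arrays. Between the 9-array and 8-array fits, the difference from sea level, rounded to 2 decimals, moved by over 1.5 times or changed sign for 28 of the 37 enzymes at 7 km and for 26 at 3 km. That count was not made over all probes, but their differences shrank too. Their median absolute difference at 7 km was 0.08 on 9 arrays and 0.04 on 8, the same as for the 37 enzymes. At 3 km it was 0.08 and 0.03 over all probes, and 0.06 and 0.03 for the enzymes. Of the markers on the array, 6 of 6 for neurons and 5 of 6 for astrocytes were tested. Summed neuron levels were 13741 to 16188 at sea level, 13531 to 15054 at 3 km and 13718 to 14323 at 7 km. Summed astrocyte levels were 13146 to 14129, 12312 to 13567 and 13447 to 14258 in the same order. At 3 km against sea level, 1 neuron marker was higher and 5 were lower. Summed interneuron and microglia levels overlapped between all groups. The level of the 1 tested red cell marker was 10410 on sea level replicate 3 and 4242 to 8112 on the others. The summed level of the oligodendrocyte markers, of which 6 of 7 on the array were tested and Mag was not detected, was 7781 to 8611 at sea level, 5921 to 8078 at 3 km and 2902 to 5098 at 7 km. That of the endothelial markers, with 2 of 4 tested, was 1485 to 1882, 2440 to 4149 and 2481 to 4518 in the same order. For the choroid plexus only 1 of 5 markers on the array was tested, and Folr1 and Aqp1 were detected on no array. The level of that 1 marker was 3500 on sea level replicate 3 and 157 to 203 on the others. The part of these markers in the results for the enzymes was not tested, and fewer cells of a type cannot be told apart from less RNA per cell.

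Of the 77 genes, 37 were detected on at least 3 arrays and were tested, which is 48.1% against 36.5% of all named genes. Detection was unequal between families. Both hydrolases, 2 of 3 Ubr ligases, 3 of 4 Ube3 and Ube4 ligases, 15 of 27 conjugating enzymes and 15 of 36 Usp proteases were tested, but 0 of 4 activating enzymes. Of the activating enzymes, Uba2, a subunit of the E1 for SUMO, and Uba7, the E1 for ISG15, were detected on no array. Uba3, the catalytic subunit of the E1 for NEDD8, and Uba6, an alternative E1 for ubiquitin, were detected on sea level replicate 3 alone. Uba1 is not among the 77 genes, so of these 4 only Uba6 is an E1 for ubiquitin itself. In all, 30 genes were detected on all 9 arrays, 29 on none, and 11 on sea level replicate 3 alone: Uba3, Uba6, Ube2j1, Ube2k, Ube2l6, Ubr7, Usp1, Usp25, Usp3, Usp31 and Usp49. The genes detected on no array include Ube2n, the E2 for chains linked through lysine 63, its partner Ube2v1, and the proteases Usp8 and Usp9x. A probe below detection does not show that the gene was silent. The 40 untested genes had normalized log2 signals of 7.28 to 7.43 on the other 8 arrays and at most 7.62 on sea level replicate 3.

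**Figure D1:**
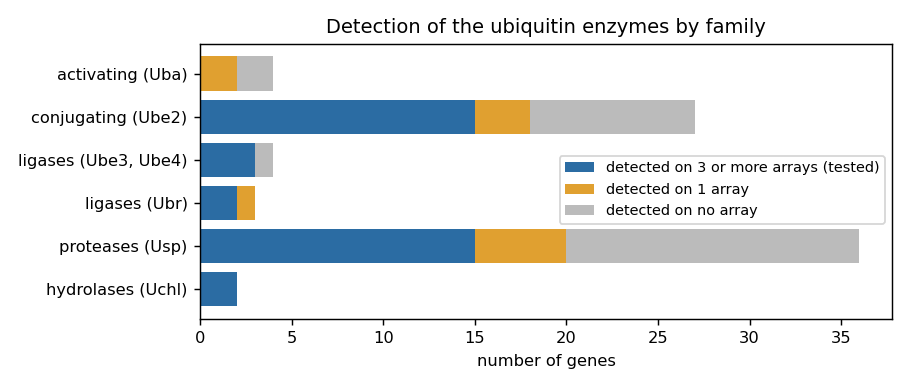
Number of genes in each enzyme family (bars, in genes) that were detected on 3 or more arrays, on 1 array or on no array. Usp6nl is left out. All 4 activating enzymes fall outside the tested class, while both hydrolases fall inside it, and each gene detected on 1 array was detected on sea level replicate 3.

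Values below are normalized log2 signals. Signals of single arrays are from the normalization of all arrays. Its lowest value is 7.26 and its median over all probes is 7.33. A probe below about 8 therefore has little room to differ, and its differences are pulled towards 0. The normalization on 8 arrays has a higher median, 7.47, so dim probes lie higher there and their differences are on another scale. For Usp11 the mean at 7 km was 7.44 with all arrays and 7.56 on 8 arrays. How much of a change between the fits comes from this scale was not tested. Differences are given with their standard error from the fit and with the adjusted p from limma.

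No enzyme passed the test between 7 km and sea level. Of the 37 tested, 0 had an adjusted p below 0.05 in limma (0 also on 8 arrays), against 0.120% of all probes (0.308% on 8 arrays), and 7 had an unadjusted p below 0.05, or 18.9% against 11.4% of all probes. On 8 arrays that count was 5, or 13.5% against 12.5%. With all 9 arrays, 12 enzymes were above sea level and 25 below, with 47.7% of all probes above, and their median difference was -0.05 against -0.01 over all probes. On 8 arrays, 11 were above, with 50.0% of all probes above, and the median was -0.02. The 7 km and sea level arrays did not overlap for 5 enzymes that were higher at 7 km (12.2% of all probes) and for 7 that were lower (12.5%). On 8 arrays the groups did not overlap for 13 enzymes in either direction, which is 35.1% against 32.4% of all probes.

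By sign, most conjugating enzymes and Usp proteases were below sea level at 7 km in both fits. Both Ubr ligases were higher at 7 km, with a family median of 0.29, or 0.26 on 8 arrays. This sign is lost when all 9 arrays are scaled to equal medians. It is also lost on 8 arrays, where that scaling gave a family median of -0.04 against -0.03 over all probes. Among conjugating enzymes 3 were higher and 12 lower, with a median of -0.05, and on 8 arrays 5 were higher and 10 lower, with a median of -0.02. Among the Usp proteases 4 were higher and 11 lower, also with a median of -0.05, and on 8 arrays 3 were higher and 12 lower, with a median of -0.03. The Ube3 and Ube4 ligases had 2 higher and 1 lower with all arrays, but 1 higher and 2 lower on 8 arrays. The hydrolases had 1 of each with all arrays, and neither was higher on 8 arrays.

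The enzymes that set the 7 km arrays apart from both other groups were few. An unadjusted p below 0.05 in both comparisons of 7 km was found for 3 enzymes, which are Ubr4, Ube2q1 and Usp2. That is 8.11% of the 37, against 1.22% of all probes tested, and on 8 arrays it was again 3 enzymes against 3.35% of all probes. The 250 bases before the start of each are shown because these are the promoters of the only members with that pattern. They are from RefSeq on build GRCr8, and capitals mark the core of the HIF response element ACGTG, or GCGTG, on either strand, where CACGTG holds ACGTG on both strands.
Ube2q1, chr2:177496310-177496559, plus strand: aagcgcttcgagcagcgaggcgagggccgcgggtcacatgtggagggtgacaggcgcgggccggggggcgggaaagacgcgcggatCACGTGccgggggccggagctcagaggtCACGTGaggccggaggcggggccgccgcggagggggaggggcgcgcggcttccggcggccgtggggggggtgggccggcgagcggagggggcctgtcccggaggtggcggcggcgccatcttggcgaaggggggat
Ubr4, chr5:156918835-156919084, plus strand: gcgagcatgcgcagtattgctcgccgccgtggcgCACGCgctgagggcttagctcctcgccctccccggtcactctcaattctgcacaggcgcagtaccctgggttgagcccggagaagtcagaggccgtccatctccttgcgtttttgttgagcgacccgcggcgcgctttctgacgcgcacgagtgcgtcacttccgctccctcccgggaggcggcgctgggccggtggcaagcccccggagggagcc
Usp2, chr8:53310620-53310869, plus strand: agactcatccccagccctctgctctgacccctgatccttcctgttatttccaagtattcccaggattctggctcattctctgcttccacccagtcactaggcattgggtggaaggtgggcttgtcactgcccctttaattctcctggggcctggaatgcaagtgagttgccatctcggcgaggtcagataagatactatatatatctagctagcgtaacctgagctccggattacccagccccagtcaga

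The Ube2q1 promoter holds CACGTG at 2 places, beginning at positions -164 and -136 relative to the start. The Ubr4 promoter holds GCGTG once, on the other strand, at position -216, and the Usp2 window holds neither core. Either core is present in 36.7% of all 33469 promoters of this length, in 59.1% of the 66 promoters found for the 77 genes, and in 51.5% of the 33 found for tested members. CACGTG is present in 5.6% of all promoters and in 6.1% of the members' promoters. These matches describe the letters and not binding. Both cores contain CG, and whether the shares follow the GC content of the promoters was not tested. The GC content was 78.4% for Ube2q1, 68.4% for Ubr4 and 52.0% for Usp2.

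Ubr4 is a very large ligase of the N-degron pathway, which recognises destabilising first residues of proteins. Its log2 signals were 9.75, 9.57 and 9.84 at 7 km, 9.36, 9.39 and 9.36 at 3 km, and 9.50, 9.30 and 9.30 at sea level. The 3 arrays at 7 km were the highest of the 9, while the 3 km and sea level arrays overlapped. The difference of 7 km from sea level was 0.35 ± 0.081 (adjusted p = 0.247), and 0.33 ± 0.093 on 8 arrays. Under median scaling it was -0.31 relative to the shift of all tested probes, and -0.05 on 8 arrays, so its sign depends on the scaling. Ubr2, a ligase of the same pathway, gave 8.56, 8.74 and 8.65 at 7 km, 8.43, 8.40 and 8.62 at 3 km, and 8.40, 8.53 and 8.33 at sea level. Its lowest value at 7 km lay just above the highest at sea level, and the 3 km arrays overlapped both groups. The difference was 0.23 ± 0.079 (adjusted p = 0.397), and 0.18 ± 0.081 on 8 arrays, and under median scaling it was -0.26 relative to the shift with all arrays but 0.03 on 8 arrays.

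Ube2q1, a conjugating enzyme with a long N-terminal extension, gave 7.74, 7.78 and 7.77 at 7 km, 7.61, 7.68 and 7.71 at 3 km, and 7.63, 7.64 and 7.66 at sea level. All 7 km arrays were above all others, by a small margin on this compressed scale. The difference from sea level was 0.12 ± 0.033 (adjusted p = 0.350), 0.09 ± 0.024 on 8 arrays, 0.28 without background correction, and 0.59 in the authors' deposited value table. It stayed positive, at 0.07, relative to the shift under median scaling. Of all probes tested, 2.42% had all 7 km arrays above the other 6, as Ube2q1 and Ubr4 did.

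Usp2, a rhythmically expressed protease known to act on cyclin D1 and on clock proteins, showed the opposite pattern. Its signals were 7.74, 7.70 and 7.78 at 7 km, 7.93, 8.02 and 7.96 at 3 km, and 7.93, 8.17 and 7.97 at sea level. All 7 km arrays lay below the other 6, as for Ube2j2 and Usp39 and for 3.17% of all probes. The difference from sea level was -0.28 ± 0.065 (adjusted p = 0.248), -0.25 ± 0.061 on 8 arrays, and -0.59 in the authors' deposited value table. It was -0.46 relative to the shift under median scaling. Usp4, a protease with roles in growth factor and splicing pathways, gave 7.90, 7.68 and 7.86 at 7 km, 7.89, 8.01 and 7.68 at 3 km, and 8.11, 8.10 and 8.01 at sea level. Its 7 km arrays were all below sea level, whereas the 3 km group reached the lowest sea level value. The difference was -0.26 ± 0.092 (adjusted p = 0.414) and -0.24 ± 0.085 on 8 arrays.

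**Figure D2:**
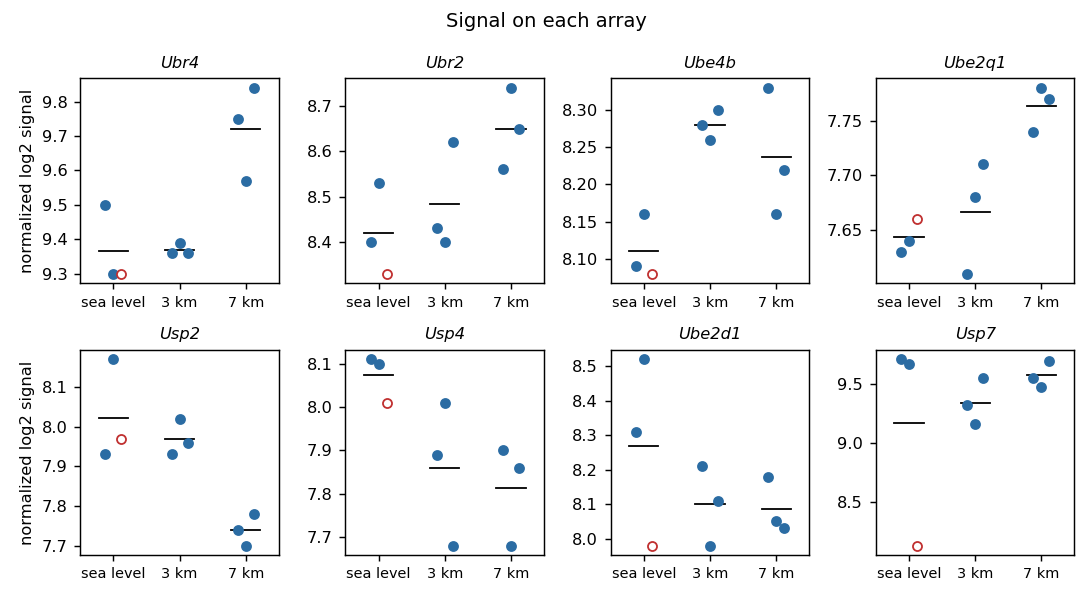
Normalized log2 signal (vertical axis, with its own range in each panel) of 8 enzymes on each array at sea level, 3 km and 7 km. Points are arrays, lines are group means, and the open red circle is sea level replicate 3. Ubr4 and Ube2q1 are highest and Usp2 is lowest on the 7 km arrays, while for Usp7 the open circle at 8.13 is far below the other arrays.

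Ube4b, a U-box enzyme that lengthens ubiquitin chains, gave 8.33, 8.16 and 8.22 at 7 km, 8.28, 8.26 and 8.30 at 3 km, and 8.09, 8.16 and 8.08 at sea level. Both altitude groups were at or above the highest sea level value. The difference of 7 km from sea level was 0.13 ± 0.048 (adjusted p = 0.414), 0.10 ± 0.048 on 8 arrays, and -0.25 relative to the shift under median scaling, or 0.01 on 8 arrays. Ube2d1, a broadly used conjugating enzyme, gave 8.18, 8.05 and 8.03 at 7 km, 8.21, 7.98 and 8.11 at 3 km, and 8.31, 8.52 and 7.98 at sea level. Its sea level values were spread by replicate 3. The difference of 7 km was -0.19 ± 0.13 (adjusted p = 0.453) with all arrays and -0.30 ± 0.084 (adjusted p = 0.232) on 8 arrays.

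Among the other proteases, Usp30, which is anchored in the mitochondrial outer membrane and opposes mitophagy, gave 7.64, 7.54 and 7.59 at 7 km, 7.59, 7.60 and 7.58 at 3 km, and 7.66, 7.65 and 7.71 at sea level. Both altitude groups lay below sea level, each with a difference of -0.08 ± 0.034, or -0.05 ± 0.023 on 8 arrays. Usp14, a protease that acts on the proteasome, gave 11.16, 10.74 and 11.05 at 7 km, 10.67, 11.04 and 10.76 at 3 km, and 11.06, 11.15 and 11.44 at sea level. The 7 km and sea level arrays overlapped, and the difference was -0.23 ± 0.15, or -0.12 ± 0.16 on 8 arrays with a 95% interval of -0.50 to 0.26.

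Usp7 and Ube2r2 had positive 7 km differences with all arrays and negative ones without sea level replicate 3. Usp7, which acts on Mdm2 and p53, gave 9.55, 9.48 and 9.70 at 7 km, 9.32, 9.16 and 9.55 at 3 km, and 9.71, 9.67 and 8.13 at sea level. Its difference was 0.40 ± 0.40 with all arrays and -0.12 ± 0.12 on 8 arrays. Ube2r2, a conjugating enzyme that works with cullin ligases, gave 10.43, 10.66 and 10.69 at 7 km, 10.37, 10.02 and 10.64 at 3 km, and 10.76, 10.68 and 9.47 at sea level. Its difference was 0.29 ± 0.34 with all arrays and -0.14 ± 0.19 on 8 arrays.

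The hydrolases gave no difference beyond their spread. Uchl1, an abundant neuronal enzyme that binds and processes ubiquitin, gave 9.64, 8.91 and 8.70 at 7 km, 8.95, 9.04 and 9.16 at 3 km, and 9.27, 9.08 and 8.70 at sea level. The groups overlapped throughout, the 7 km difference was 0.07 ± 0.25 with all arrays, and the 95% interval of the 7 km difference on 8 arrays ran from -0.76 to 0.57. Uchl5, which works on the proteasome, lay between 7.55 and 7.76 on all arrays, with a 7 km difference of -0.05 ± 0.055, or 0.00 ± 0.035 on 8 arrays. Ube3a, the ligase lost in Angelman syndrome, lay between 7.46 and 7.52 on the other 8 arrays and at 7.29 on sea level replicate 3, where it was not detected, and its 7 km difference was 0.06 ± 0.056 with all arrays and 0.00 ± 0.016 on 8 arrays.

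Ube2v2, an inactive variant that partners Ube2n, was detected on all 3 sea level arrays, on 1 array at 3 km and on none at 7 km. Taking the lowest detected level of each array as the bound for 7 km, the sea level mean was at least 1.02-fold higher. That margin rested on sea level replicate 3, since the mean of the other sea level arrays was 7.44 against a bound of 7.43. Its signals were 7.43, 7.44 and 7.53 at sea level and 7.41, 7.40 and 7.43 at 7 km, so the groups barely parted. The E2 enzymes for NEDD8 gave small differences of 7 km from sea level, with -0.03 ± 0.069 for Ube2m and -0.06 ± 0.037 for Ube2f, or -0.06 ± 0.060 and -0.03 ± 0.023 on 8 arrays. Among E2 enzymes used in degradation from the endoplasmic reticulum, the difference was 0.10 ± 0.050 for Ube2g1, -0.04 ± 0.028 for Ube2g2 and -0.16 ± 0.074 for Ube2j2. On 8 arrays these were 0.05 ± 0.034, -0.02 ± 0.015 and -0.06 ± 0.024.

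Ube2q2, Usp19, Ube2e3 and Usp47 gave smaller 7 km differences without sea level replicate 3, as did most of the tested enzymes. For 29 of the 37, the difference from sea level, rounded to 2 decimals, was larger in size with all arrays. Ube2q2, a relative of Ube2q1, gave 8.08 on sea level replicate 3 and 7.56 to 7.65 on the other arrays. Its 7 km difference was -0.15 ± 0.12 with all arrays and 0.01 ± 0.021 on 8 arrays. Usp19, a protease anchored in the endoplasmic reticulum, gave 7.66 there and 8.01 to 8.21 elsewhere, and its difference was 0.20 ± 0.11 with all arrays and 0.06 ± 0.057 on 8 arrays. Ube2e3, a conjugating enzyme of the nucleus, varied widely within each group, with 9.44, 9.05 and 9.37 at 7 km, 8.99, 9.04 and 9.24 at 3 km, and 9.51, 9.11 and 9.59 at sea level. Its 7 km difference was -0.12 ± 0.15, or -0.03 ± 0.17 on 8 arrays. For Usp47, described with the 3 km results, it was -0.25 ± 0.18 with all arrays and -0.03 ± 0.073 on 8 arrays, and for Usp5 it was 0.01 ± 0.050 and -0.01 ± 0.040. For Usp13 it was 0.02 ± 0.038 and 0.04 ± 0.020. The remaining 11 tested enzymes had 7 km differences from -0.11 (Usp45) to -0.01 (Ube4a and Usp48) with all arrays, each with a 95% interval that includes 0, and from -0.08 (Usp45) to 0.01 (Usp11) on 8 arrays. They include Usp16, a protease for histone H2A, and Ube2s, which extends chains linked through lysine 11. They also include Ube2l3, an E2 that works with parkin, and Usp39, a splicing factor that lacks protease activity.

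At 3 km, no enzyme passed the test against sea level. Of the 37, 0 had an adjusted p below 0.05 in limma, as did 0.00% of all probes, and 6 had an unadjusted p below 0.05 (16.2% against 8.07%). On 8 arrays that count was 5, or 13.5% against 9.48%. With all arrays, 14 were above sea level and 23 below, with 49.7% of all probes above and a median of -0.03 against 0.00 over all probes. On 8 arrays, 11 were above, with 51.4% of all probes above. The groups did not overlap for 2 that were higher (8.80% of all probes), Ube2g1 and Ube4b. Nor did they overlap for 6 that were lower (10.7%), of which 5 belong to the Usp family, Usp39 among them. On 8 arrays the groups did not overlap for 13 enzymes, which is 35.1% against 30.6% of all probes in either direction. Of these, 3 were higher, or 8.11% of the 37 against 15% of all probes, and 10 were lower, or 27.0% against 15.6%. This comparison shares its sea level arrays with that of 7 km, so like signs in both are not independent.

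Ube2g1 gave 8.44, 8.52 and 8.51 at 3 km, 8.38, 8.39 and 8.45 at 7 km, and 8.33, 8.38 and 8.21 at sea level. The 3 km arrays were above sea level by 0.18 ± 0.050 (adjusted p = 0.403), and by 0.13 ± 0.034 on 8 arrays. Under median scaling its value relative to the shift was -0.07 with all arrays and 0.23 on 8 arrays. Ube4b was 0.17 ± 0.048 above sea level (adjusted p = 0.406), 0.14 ± 0.048 on 8 arrays, and -0.09 relative to the shift under median scaling, or 0.20 on 8 arrays. Usp5, which takes apart free ubiquitin chains, gave 7.70, 7.86 and 7.85 at 3 km, 7.70, 7.68 and 7.64 at 7 km, and 7.71, 7.67 and 7.61 at sea level. Of its 3 km arrays, 2 were the highest of all 9, and the difference was 0.14 ± 0.050 (adjusted p = 0.533), or 0.09 ± 0.040 on 8 arrays.

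Several proteases had lower values at 3 km. Usp47, known for its action on DNA polymerase beta, gave 8.35, 8.47 and 8.25 at 3 km, 8.57, 8.44 and 8.62 at 7 km, and 8.60, 8.54 and 9.24 at sea level. All 3 km arrays were below sea level, but sea level replicate 3 widened the gap. The difference was -0.44 ± 0.18 with all arrays (adjusted p = 0.533) and -0.20 ± 0.073 on 8 arrays (adjusted p = 0.471). For Usp14 it was -0.39 ± 0.15 and -0.29 ± 0.16, with the 3 km values given above all below sea level. For Usp7 the value on 8 arrays was -0.36 ± 0.12 (adjusted p = 0.415), against 0.17 ± 0.40 with all arrays. Usp2 was close to sea level at 3 km, with a difference of -0.05 ± 0.065, or -0.07 ± 0.061 on 8 arrays.

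Between 7 km and 3 km, no enzyme passed either. The sea level arrays do not enter the difference itself, but they share in the normalization and in the estimate of the spread. Of the 37, 0 had an adjusted p below 0.05 in limma, as did 0.00% of all probes, and 4 had an unadjusted p below 0.05 (10.8% against 2.70%). With the fit on 8 arrays that count was 7 (18.9% against 8.19%). In a fit of the 6 arrays alone it was 6 of 36 (16.7% against 7.53%), and 0 passed. The groups did not overlap for 3 that were higher at 7 km (5.93% of all probes) and for 5 that were lower (7.71%), and on 8 arrays for 8 in either direction (21.6% against 13.6% of all probes). In all, 20 were above 3 km and 17 below, with 49.7% of all probes above (49.6% on 8 arrays) and a median of 0.00. Ubr4 was 0.35 ± 0.081 above 3 km (adjusted p = 1, and 0.382 on 8 arrays), but -0.12 relative to the shift under median scaling. Usp2 was -0.23 ± 0.065 against 3 km, and Ube2q1 was 0.09 ± 0.033. Usp5 was -0.13 ± 0.050, its 7 km arrays at or below the lowest at 3 km. Usp13, a relative of Usp5, was 0.06 ± 0.038, with values of 7.66, 7.61 and 7.67 at 7 km and 7.60, 7.56 and 7.59 at 3 km.

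**Figure D3:**
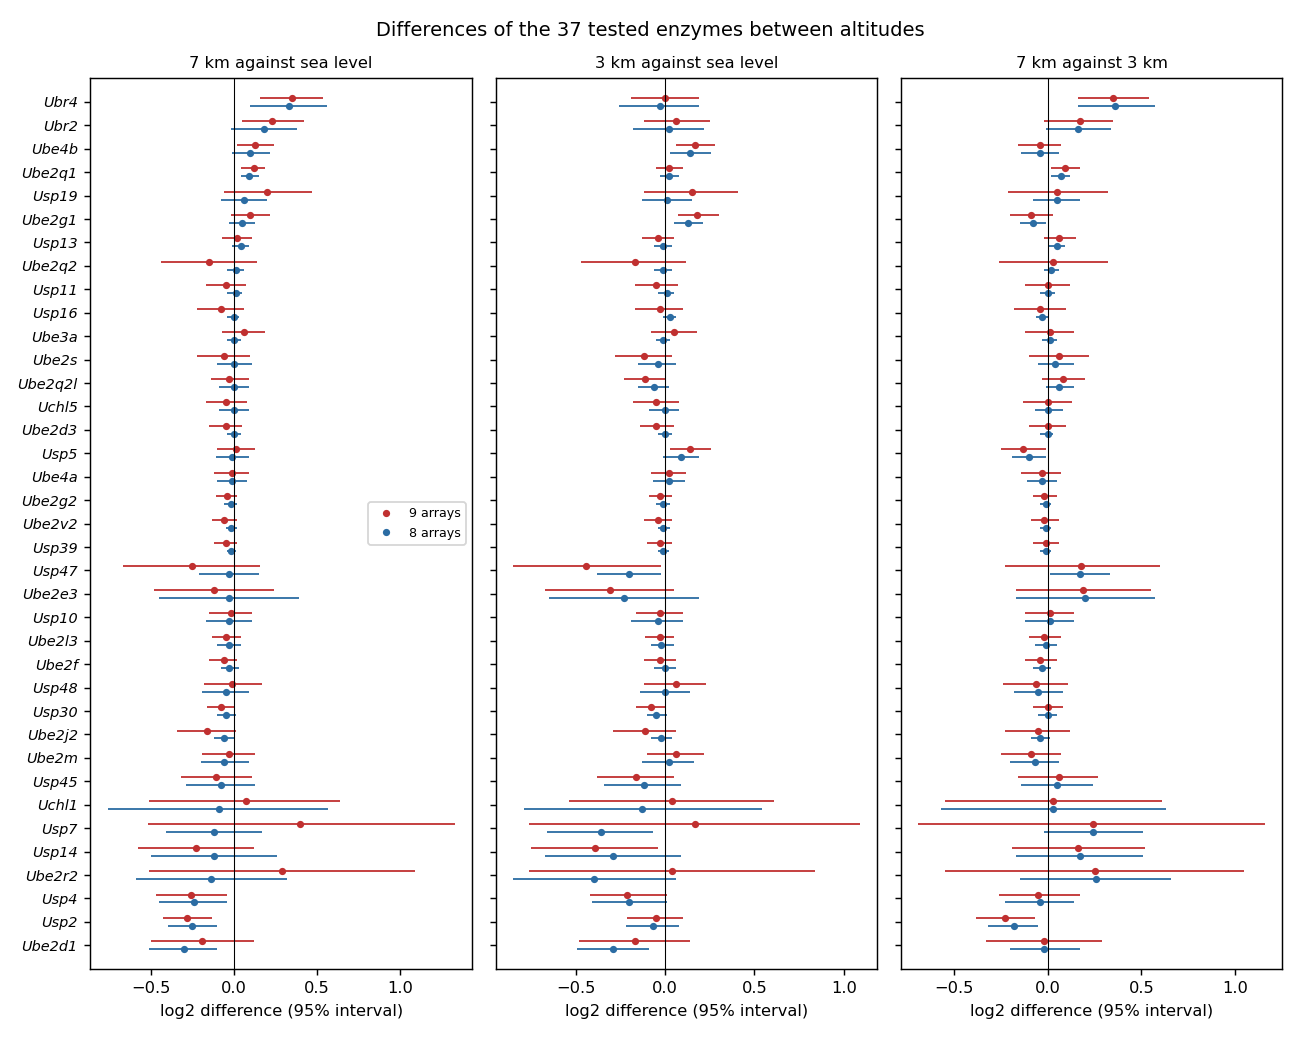
Difference in normalized log2 signal (horizontal axis, with the 95% interval as a line) of the 37 tested enzymes for each pair of groups. Red is the fit with 9 arrays and blue the fit on 8 arrays, without sea level replicate 3. Ubr4 lies highest and Ube2d1 lowest on 8 arrays at 7 km, and the red intervals of Usp7 and Ube2r2 are the widest.

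Other genes of the ubiquitin system were read from a list of 74 outside these families, of which 54 were on the array and 38 were tested. None passed the test in limma in any of the 3 comparisons. Against sea level, 14 were higher and 24 lower at 7 km, with a median of -0.04. Of all probes, 47.7% were above (50.0% on 8 arrays), with a median of -0.01. The count on the list with an unadjusted p below 0.05 was 0 higher and 3 lower. The 3 are 7.89% of the list, close to the 6.84% of all probes that were lower by the same criterion. On 8 arrays, 17 were higher and 20 lower, with a median of -0.03, and 1 higher and 4 lower had an unadjusted p below 0.05. These are 2.7% higher, against 5.49% of all probes, and 10.8% lower, against 7.05%. The 3 genes lower with all arrays are Skp1, Cul1 and Rbx1. They encode the core of the SCF ligase, which works with Ube2r2 among other E2 enzymes. At 3 km, 13 were higher and 25 lower, with a median of -0.06, or 11 and 26 with a median of -0.02 on 8 arrays. Of all probes, 49.7% were above (51.4% on 8 arrays), with a median of 0.00. An unadjusted p below 0.05 was found for 2 higher (3.26% of all probes) and 3 lower, or 7.89% against 4.81%. On 8 arrays there were 2 higher (5.41% against 4.32%) and 4 lower (10.8% against 5.15%). Between 7 km and 3 km, 23 were higher and 15 lower, with a median of 0.01, against 49.7% of all probes above and a median of 0.00.

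Skp1, the adaptor of that ligase, gave 12.06, 12.06 and 12.01 at 7 km, 12.05, 12.10 and 12.19 at 3 km, and 12.28, 12.25 and 12.48 at sea level. Both altitude groups were below sea level, and the 7 km difference was -0.29 ± 0.067 (adjusted p = 0.247), or -0.22 ± 0.043 on 8 arrays (adjusted p = 0.133). Cul1, its scaffold, gave 9.54, 9.73 and 9.69 at 7 km, 9.84, 9.87 and 9.81 at 3 km, and 9.97, 9.95 and 10.79 at sea level. Without sea level replicate 3 its 7 km difference went from -0.58 ± 0.21 (adjusted p = 0.414) to -0.32 ± 0.059 (adjusted p = 0.115). Rbx1, its RING subunit, gave 8.77, 8.91 and 8.82 at 7 km, 8.92, 8.97 and 8.78 at 3 km, and 9.26, 9.12 and 10.07 at sea level. Its 7 km difference was -0.65 ± 0.23 with all arrays and -0.37 ± 0.076 on 8 arrays (adjusted p = 0.149). Sea level replicate 3 was the highest array for all 3 genes.

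Nae1, a subunit of the E1 for NEDD8, which activates cullin ligases, had a 7 km difference of -0.44 ± 0.24 with all arrays. On 8 arrays it was -0.10 ± 0.026 (adjusted p = 0.21 in limma). Cops4, a subunit of the signalosome that removes NEDD8, went from -0.06 ± 0.22 to 0.25 ± 0.058 when sea level replicate 3 was left out (adjusted p = 0.192 in limma). At 3 km the difference from sea level was 0.33 ± 0.13 for Cops6, another signalosome subunit (0.31 ± 0.16 on 8 arrays), and 0.20 ± 0.082 (0.13 ± 0.079 on 8 arrays) for Egln2, a prolyl hydroxylase that marks HIF alpha for ubiquitination. Sumo2 gave 11.21, 11.17 and 11.21 at 3 km and 11.46, 11.43 and 11.30 at sea level, a difference of -0.20 ± 0.084 (-0.26 ± 0.093 on 8 arrays), while its 7 km arrays (11.43, 11.45 and 11.15) overlapped both groups.

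**Figure D4:**
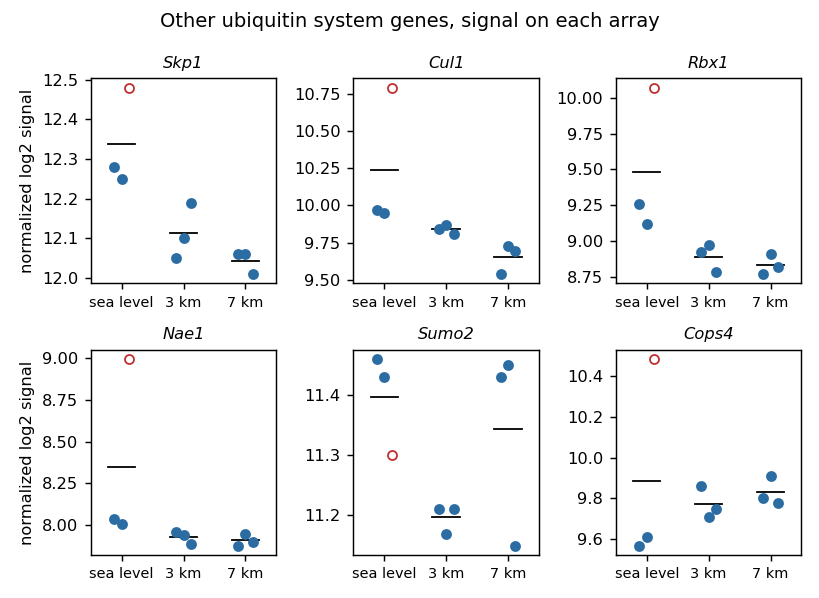
Normalized log2 signal (vertical axis, with its own range in each panel) of 6 other ubiquitin system genes on each array at sea level, 3 km and 7 km. Points are arrays, lines are group means, and the open red circle is sea level replicate 3. Skp1, Cul1 and Rbx1 are lower on all 7 km arrays than on all sea level arrays, and the open circle is the highest point for 5 of the 6 genes.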

How the data were processed

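Each array gave a deposited intensity (signal) and a deposited detection p-value for 22523 probes. The medians of the signals differ between arrays, so they were not scaled to each other. They were processed as signals without background subtraction. A second deposited table, of the authors' own values (intensity), covers 21675 probes, and between 29.3 and 58.8% of the entries for an array are negative. How it was made is not given in the sources used here, and it served as an alternative with values under 16 set to 16. Per the labels' protocols, RNA was extracted with Trizol and labelled with biotin.

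Signals were processed with neqc of limma 3.58.1 in R 4.3.3 (negative controls inferred from detection p-values, offset 16, quantile normalization, log2). Testing was limited to probes detected (p below 0.05) on 3 or more arrays, 6656 on 9 arrays and 6499 on 8 arrays. Group means were fitted in limma (eBayes without trend, Benjamini-Hochberg adjustment over all tested probes, threshold 0.05). The scripts were tested on simulated data. Of the probes, 13353 carry a symbol and 9170 none, and all 77 genes matched RefSeq. Named genes are those past the threshold, then those with the smallest p in each family and comparison, and a set of well-known members. The members and lists were chosen with earlier results of these data known. The number of arrays limits the precision. Alternatives varied the background correction, normalization, filter, variance model, array weights, value table, the arrays used and the replicate number as a block.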

Additional observations from a re-analysis of the deposited data

How the results depend on the processing

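No enzyme passed the threshold in any setting tried, except that with array weights 2 passed at 7 km against sea level, Ube2q1 (adjusted p = 0.0494, range over settings 0.0494 to 0.738) and Usp2 (adjusted p = 0.0387, range 0.0387 to 0.591) in limma. The count of all probes called at 7 km against sea level was 8. It was 176 with array weights, 13 with the authors' table, 3 with a variance trend, and 0 with median scaling, with the 6 arrays of the pair, with the replicate block or with the stricter filter. Without sea level replicate 3 it was 34 with the authors' table, 58 without background correction and 2 with median scaling. Leaving out 1 array at a time gave 0 to 20, the 20 being without sea level replicate 3. At 3 km against sea level the count was 0, and it was 120 with array weights, 3 with the authors' table, 3 with a trend and 1 without a filter. Without sea level replicate 3 it was 17 with the authors' table, 17 without background correction and 2 without a filter, and leaving out 1 array gave 0 to 1. Between 7 km and 3 km it was 0, and 1 with the authors' table. Without sea level replicate 3 it was 4 with that table and 1 with median scaling, and leaving out 1 array gave 0 to 0. The members' median at 7 km against sea level, -0.05, became -0.02 with array weights, -0.86 with median scaling, -0.11 without background correction, -0.01 without a filter, 0.07 with the stricter filter, which left 15 members, and 0.00 without a filter and without sea level replicate 3. Leaving out 1 array gave -0.06 to -0.02. At 3 km against sea level, -0.03 became -0.68 with median scaling, -0.09 without background correction and 0.04 with the stricter filter. Without sea level replicate 3 it was 0.01 with median scaling and 0.00 without a filter, and leaving out 1 array gave -0.05 to -0.01. Between 7 km and 3 km, 0.00 became -0.03 with the authors' table, -0.10 with median scaling and 0.05 with the stricter filter. Without sea level replicate 3 it was -0.03 and -0.10 under the first 2 of these, and leaving out 1 array gave -0.02 to 0.01. Median scaling moved the median of all tested probes by -0.64, -0.55 and -0.06 in these comparisons. The causes of these shifts were not tested, beyond the fewer members under the stricter filter. After removal of group means, same-numbered arrays of different groups had correlations of 0.0131 to 0.305 over 9 pairs. Arrays with other numbers had -0.303 to 0.277 over 18 pairs. With 3 arrays per group, these values cannot decide whether the numbers pair the samples. The replicate block called 0 members. The alternative with a second probe per gene was not run because each gene has 1 probe. Alternatives joined to the omission of sea level replicate 3 were chosen after seeing the data.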
